A study of Rattus norvegicus with 6 samples.

Results

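Interferon-stimulated genes are the genes that cells switch on when an interferon binds its receptor, and 44 listed rat genes of this kind were followed here in the renal cortex. The list was given by gene name: 33 effectors that act against viruses and other intracellular microbes, 4 sensors of foreign nucleic acid, 5 STAT and IRF transcription factors and 2 feedback inhibitors of the pathway. An array probe was found for 39 of the 44, and 38 could be tested, among 12118 named genes tested on the arrays. No probe was matched to Herc6, Ifi44l, Xaf1, Ddx58 (named Rig1 in the gene table used) or Zbp1. Ifit1 had a probe, but it was well above background on 1 vehicle array and on 0 treated arrays and was not tested. Of the 38, 37 were well above background on all 6 arrays. Oasl passed only through the vehicle group, with 3 vehicle arrays and 1 treated array above background.

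The tissue came from 6 male Sprague-Dawley (Crl:CD(SD)) rats, bought at 5 weeks of age. Of these, 3 received corn oil, the vehicle, and 3 received sulfone bis(p-chlorophenyl) at 250 mg/kg/day, both for 4 weeks. The compound is a diaryl sulfone with a chlorine on each ring. Each RNA was labelled with Cy3 and hybridised on its own to an Agilent rat array of 1 colour, and the design text calls the 3 samples of a group biological replicates, so p-values measure the spread between these 3 animals and the handling of their tissue. The question was which transcript levels of the renal cortex differed after repeated dosing.

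Type I interferons signal through the receptor chains Ifnar1 and Ifnar2 and the kinases Jak1 and Tyk2 to a complex that holds Stat2 and Irf9 and binds the interferon-stimulated response element in promoters. Interferon gamma signals through its own receptor to factors that bind the gamma-activated site. Kidney tubule, endothelial and immune cells all carry these receptors, and many of the target genes are transcribed at a low level without infection.

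Many of the promoter sequences show these binding motifs. Those printed were picked among the promoters with a motif, for a large difference between the groups or a shared motif layout. They were read from a RefSeq promoter table of build GRCr8, which held 33 of the 44 genes, over the 250 bases before each annotated start, and are written 5′ to 3′ on the strand of the gene. Capitals mark the core of the interferon-stimulated response element, which is TTTC, any 2 bases and TTTC again, or on the other strand GAAA, any 2 bases and GAAA. They also mark the gamma-activated site TTCNNNGAA, a pattern that is the same on both strands and can overlap the core, as it does in Bst2. A match is a match of letters and not evidence of binding. Mx1 and Cmpk2 differed between the groups by more than some printed genes but had neither motif, and Isg15, Usp18 and Oas2 had no entry. The printed sequences therefore do not show that the most changed genes carry a motif.
Gbp2, chr2:234005676-234005725, plus strand: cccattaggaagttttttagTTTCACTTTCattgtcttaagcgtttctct
Gbp5, chr2:233910923-233910972, plus strand: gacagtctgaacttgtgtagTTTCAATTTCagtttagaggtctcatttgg
Ifit3, chr1:241527262-241527311, plus strand: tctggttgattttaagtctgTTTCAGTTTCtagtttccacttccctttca
Ifi44, chr2:243303841-243303886, minus strand: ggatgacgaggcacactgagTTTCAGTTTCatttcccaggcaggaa
Irf7, chr1:205800063-205800112, minus strand: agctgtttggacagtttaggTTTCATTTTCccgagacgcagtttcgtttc
Irgm, chr10:33742583-33742643, minus strand: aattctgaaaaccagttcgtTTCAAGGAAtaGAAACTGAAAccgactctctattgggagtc
Igtp, chr10:42874913-42874973, plus strand: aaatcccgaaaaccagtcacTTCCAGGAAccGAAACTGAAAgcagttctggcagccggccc
Parp14, chr11:78408027-78408087, plus strand: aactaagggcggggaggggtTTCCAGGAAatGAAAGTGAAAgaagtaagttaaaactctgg
Irf9, chr15:33065717-33065765, plus strand: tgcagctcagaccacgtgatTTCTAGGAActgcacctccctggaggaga
In Gbp2, Gbp5, Ifit3, Ifi44 and Irf7 the response element core stood alone, beginning 31, 56, 44, 26 and 69 bases before the start. Irgm, Igtp and Parp14 had a gamma-activated site followed after 2 bases by the response element core. Irf9 had a gamma-activated site, beginning 99 bases before the start, and no core in the window.

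The core was found in 20 of the 33 promoters (60.6%), against 902 of all 27457 promoters of the same length in the table (3.29%). The gamma-activated site was found in 12 of the 33 (36.4%), against 2066 of all promoters (7.52%). Both motifs were present in 8 of the promoters and neither in 9, among them those of Mx1, Cmpk2, Trim25 and Stat2. The genes were listed by name as interferon-stimulated, with earlier results of these data known, so these shares only describe the list. The 18 tested genes with a core had log2 fold changes, treated minus vehicle, of -0.97 to -0.10, with a median of -0.41. The 12 tested genes without one ranged from -0.69 to 0.32, with a median of -0.36. Genes with the same layout could differ in size, as the neighbouring pair of motifs in Irgm (-0.75) and Igtp (-0.15) shows.

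The interferon-stimulated genes were mostly lower in the treated cortex, by small amounts: 34 of the 38 tested (89.5%) had a log2 fold change below 0, against 52.5% of all genes tested, and the median was -0.41, against -0.01 for all genes. The fold change is the difference between group means of the log2 level, which is log2 of the scanner's background-subtracted signal minus the array's 75th percentile, so 0 is the level of that percentile. No gene of the 38 passed limma's test after Benjamini-Hochberg adjustment over all 40643 probes tested, neither lower nor higher. Of all 12118 genes, 1 was called lower (0.00825%) and 1 higher (0.00825%). At an unadjusted limma p under 0.05, 16 of the 38 were lower (42.1%), against 11.3% of all genes, and 1 was higher (2.63%), against 10.1%. Every treated array lay below every vehicle array for 17 of the 38 (44.7%), against 16.8% of all genes. The opposite was seen for 1, Trim25, against 13.9% of all genes. The smallest adjusted p among these genes was 0.0635, for Gbp2. The list was chosen with earlier results of these data known, and the genes of one pathway vary together. The plot of these shares sets the genes beside all genes tested and is therefore a description without a test of the list.

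**Figure D1:**
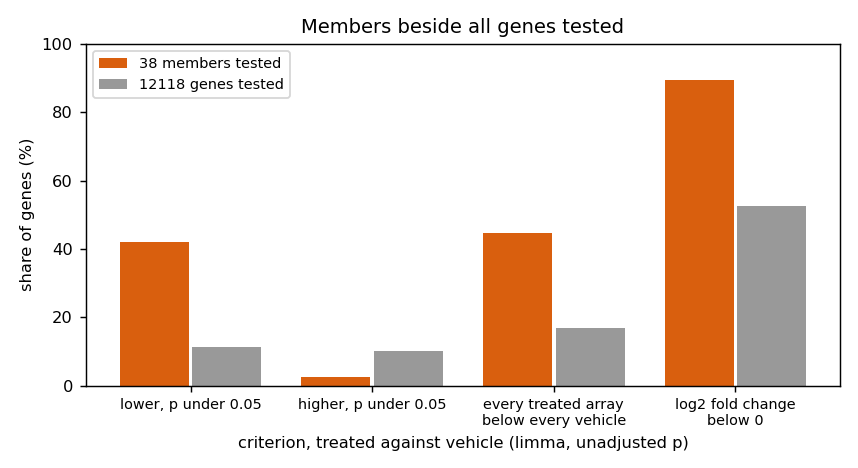
Share of genes, in percent, that met each criterion for treated against vehicle, for the 38 interferon-stimulated genes tested (orange) and all 12118 genes tested (grey). The orange bars stand above the grey ones for the 3 criteria of lower signal (42.1% against 11.3%, 44.7% against 16.8%, 89.5% against 52.5%) and below for higher signal (2.63% against 10.1%).

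Among the effectors, 29 of 33 were tested. At an unadjusted limma p under 0.05, 13 were lower and 1 was higher, against 11.3% and 10.1% of all genes. The treated arrays lay all below the vehicle arrays for 14, against 16.8% of all genes, and the median log2 fold change was -0.42. Within the effectors, the large and immunity-related GTPases had a median of -0.72 over 6 genes. The median was -0.59 over 2 IFIT genes, -0.42 over 5 genes of the OAS family, -0.41 over 4 other induced genes, -0.38 over 6 genes of ISG15, ubiquitin and ADP-ribose modification, and -0.24 over 6 other antiviral effectors.

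Gbp2 encodes a guanylate-binding protein, a large GTPase that coats the vacuoles of intracellular microbes. Its log2 level was 1.16, 1.07 and 1.33 in vehicle 1, 2 and 3 and 0.32, 0.12 and 0.21 in treated 1, 2 and 3. Vehicle arrays averaged 1.19 ± 0.13 (SD, n = 3) and treated arrays 0.21 ± 0.10 (SD, n = 3). All 3 treated arrays were low and the groups were far apart relative to their spread. The log2 fold change was -0.97 (SE 0.10, limma adjusted p = 0.0635), so vehicle signal was 1.96-fold that of treated signal. By its unadjusted p, Gbp2 ranked 11 among the 12118 genes.

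Gbp5, a second guanylate-binding protein with a role in inflammasome assembly, lies on the same chromosome near Gbp2. It had log2 levels of -1.48, -1.76 and -1.53 in the vehicle arrays and -2.64, -2.52 and -2.27 in the treated arrays. The groups did not overlap, and the log2 fold change was -0.88 (SE 0.13, limma adjusted p = 0.0839).

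Irgm is an immunity-related GTPase that regulates the attack on microbial vacuoles. Its log2 levels were -1.91, -2.0 and -1.87 in vehicle and -2.93, -2.52 and -2.58 in treated arrays. Treated 1 was the lowest, and the log2 fold change was -0.75 (SE 0.13, limma adjusted p = 0.0957). Igtp, a relative of Irgm, had a log2 change of -0.15 (SE 0.07, limma adjusted p = 0.297), although its treated arrays also lay below the vehicle arrays.

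Mx1 encodes a dynamin-like GTPase that blocks the replication of RNA viruses. Its brightest probe read 2.01, 1.74 and 2.08 in vehicle and 1.33, 1.20 and 1.23 in treated arrays on the log2 scale. The treated values were close together and below all vehicle values, with a log2 change of -0.69 (SE 0.11, limma adjusted p = 0.0904). Its second probe was dim and above background on 2 of the 3 treated arrays. There the log2 fold change was -1.64 (SE 0.36, limma adjusted p = 0.124).

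Mx2, the sister gene of Mx1, gave a different answer with each of its probes. The brightest, which stands for the gene by the selection rule, read 6.14, 6.29 and 6.29 in vehicle and 6.24, 6.11 and 6.10 in treated arrays, and the groups overlapped (log2 fold change -0.10, SE 0.08, limma adjusted p = 0.543). The dim probe read -3.02, -3.47 and -2.97 in vehicle and -4.45, -4.31 and -4.15 in treated arrays. Its groups did not overlap, with a log2 change of -1.15 (SE 0.16, limma adjusted p = 0.078). Mx1 and Mx2 are similar in sequence, and whether either probe also measured another transcript was not tested.

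Isg15, a ubiquitin-like protein that is joined to other proteins after interferon exposure, had the largest log2 fold change of the 38 genes by size. Its log2 levels were 0.72, 0.71 and 1.11 in vehicle 1, 2 and 3 and -0.30, -0.26 and 0.16 in the treated arrays. Treated 3 was the highest of its group, as vehicle 3 was of its own, and the groups did not overlap. The log2 fold change was -0.98 (SE 0.17, limma adjusted p = 0.0957).

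Dtx3l, a ubiquitin ligase, and Parp14, an ADP-ribosyltransferase, also had treated arrays below all vehicle arrays. Dtx3l read -4.09, -4.50 and -4.10 in vehicle and -4.52, -5.13 and -4.69 in treated arrays, with vehicle 2 close to treated 1 (log2 fold change -0.56, SE 0.20, limma adjusted p = 0.204). Parp14 read 2.35, 2.39 and 2.48 in vehicle and 1.93, 1.87 and 2.16 in treated arrays (log2 fold change -0.42, SE 0.10, limma adjusted p = 0.133). Parp9, the partner of Dtx3l, had a log2 change of -0.30 (SE 0.14) with overlapping groups. Trim21, a ubiquitin ligase that binds antibody-coated viruses, had -0.34 (SE 0.12) without overlap.

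Trim25, the ubiquitin ligase that modifies the RNA sensor RIG-I, went the other way. It read 2.72, 2.44 and 2.62 in vehicle and 2.91, 2.88 and 2.95 in treated arrays, with all treated arrays above all vehicle arrays. Its log2 fold change was 0.32 (SE 0.09, limma adjusted p = 0.166).

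Ifit3, a tetratricopeptide protein that helps to sequester viral RNA, had log2 levels of -2.31, -2.62 and -2.11 in vehicle and -3.13, -3.24 and -3.21 in treated arrays. The treated arrays were close together and all low, with a log2 change of -0.85 (SE 0.14, limma adjusted p = 0.0945). Its second probe gave -0.83. Ifit2, of the same family, had -0.34 (SE 0.15) with overlapping groups.

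The OAS enzymes make short 2′-5′ linked adenylates that activate the nuclease RNase L. Oas2 read -3.13, -3.26 and -2.87 in vehicle and -3.72, -3.73 and -3.76 in treated arrays (log2 fold change -0.65, SE 0.11, limma adjusted p = 0.0957), and the treated arrays were almost equal. Oas1b had -0.17 (SE 0.08), also without overlap. The groups overlapped for Oas1a (-0.42, SE 0.27), Oasl2 (-0.41, SE 0.18) and Oasl (-0.56, SE 0.36). The members of this family resemble one another in sequence, so a probe may take signal from more than its own gene.

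Cmpk2, a mitochondrial nucleotide kinase that stands next to Rsad2 in mammalian genomes, read 0.20, 0.35 and 0.41 in vehicle and -0.31, -0.32 and -0.19 in treated arrays. No arrays overlapped, and the log2 fold change was -0.60 (SE 0.09, limma adjusted p = 0.0845). Rsad2, or viperin, which makes a chain-terminating nucleotide, had a log2 change of -0.49 (SE 0.22, limma adjusted p = 0.266) with overlapping groups. Eif2ak2, the kinase PKR that stops translation on double-stranded RNA, had -0.24 (SE 0.08) without overlap, but its second probe gave 0.14 (SE 0.12).

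By their brightest probes, the remaining effectors had overlapping groups. By its brightest probe, Ifi44 was lower at an unadjusted p under 0.05, with a log2 change of -0.60 (SE 0.22). Its other probes gave -0.25 (SE 0.27) and -0.29 (SE 0.26), both with an unadjusted p over 0.05. For Rtp4 (-0.51, SE 0.43), Ifi27 (-0.30, SE 0.18), Bst2 (-0.25, SE 0.17) and Adar (-0.21, SE 0.13) the difference was under 2 SE. The second probe of Bst2 gave -0.39 (SE 0.13, limma adjusted p = 0.196, unadjusted p = 0.0252), with all treated arrays below all vehicle arrays. Rtp4 varied most among the treated animals, with log2 levels of -0.67, -1.40 and 0.33, the last above all vehicle arrays. Ifi35 read 0.75, 0.69 and 0.77 in vehicle and 0.79, 1.13 and 0.77 in treated arrays, for a log2 change of 0.16 (SE 0.12, limma adjusted p = 0.469) carried by treated 2. Samhd1, an enzyme that depletes deoxynucleotides, read -2.63, -2.78 and -2.31 in vehicle and -2.54, -2.65 and -2.43 in treated arrays. Its groups overlapped throughout (log2 fold change 0.03, SE 0.14, limma adjusted p = 0.906).

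**Figure D2:**
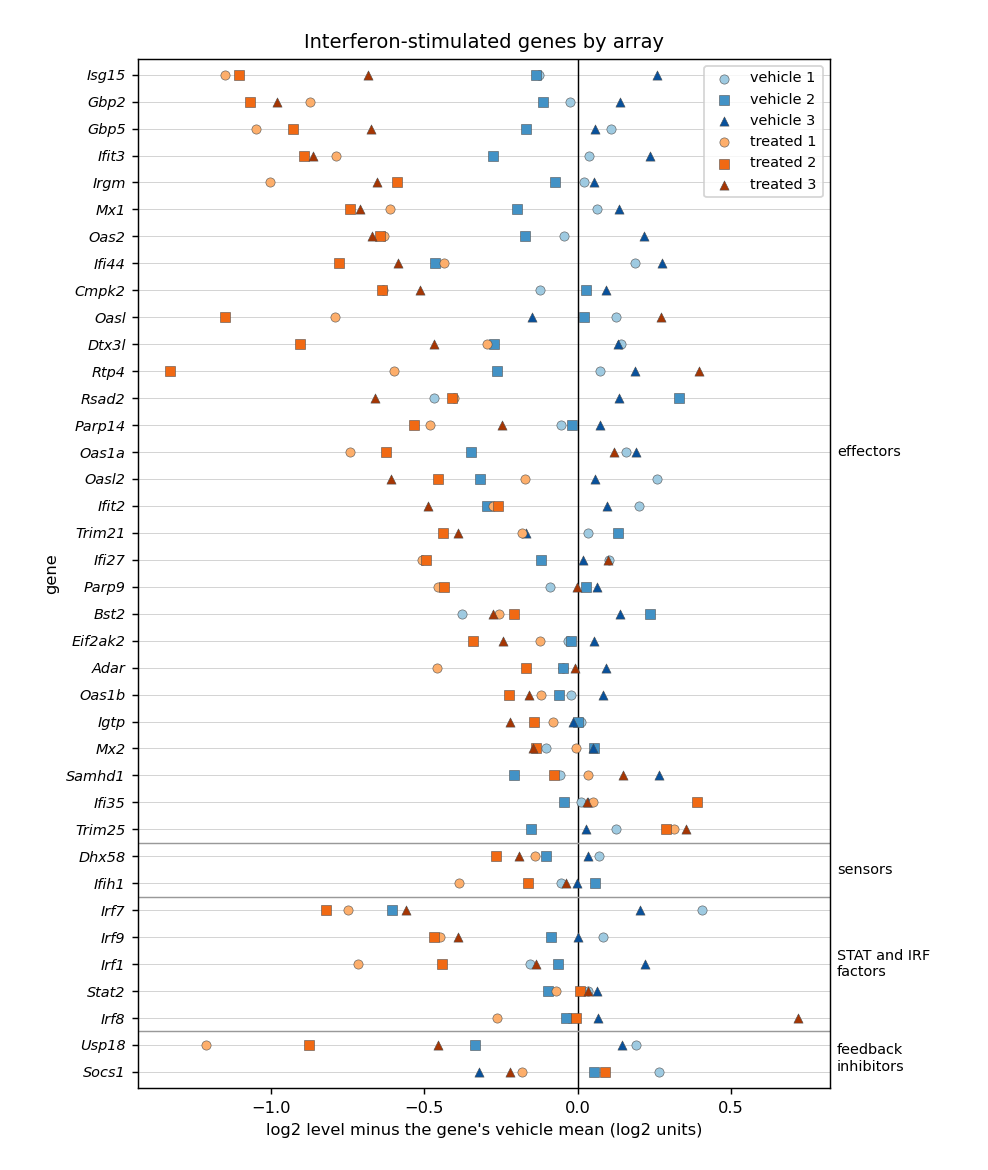
Log2 level of each of the 38 tested genes minus that gene's vehicle mean (x axis, log2 units), 1 symbol per array, blue for vehicle and orange for treated, grouped by role. For 17 genes all orange symbols lie to the left of all blue ones, and for Trim25 they lie to the right.

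Of the 4 sensors, 2 were tested, and by their brightest probes 0 differed at an unadjusted limma p under 0.05. Dhx58, a regulator of the RIG-I-like receptors, read -1.82, -1.99 and -1.85 in vehicle and -2.02, -2.15 and -2.08 in treated arrays. Its groups did not overlap, but vehicle 2 was close to the treated arrays (log2 fold change -0.20, SE 0.08, limma adjusted p = 0.247). Its other probes gave -0.39 (SE 0.11, limma adjusted p = 0.155, unadjusted p = 0.0107), without overlap, and -0.02 (SE 0.14). Ifih1, the sensor MDA5 of long double-stranded RNA, had a log2 change of -0.20 (SE 0.11, limma adjusted p = 0.347), and its groups overlapped.

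The 5 STAT and IRF factors had a median log2 change of -0.43. Irf9, the DNA-binding part of the complex with Stat2, read -1.25, -1.42 and -1.33 in vehicle and -1.78, -1.80 and -1.72 in treated arrays. Both groups were tight and separate, with a log2 change of -0.44 (SE 0.08, limma adjusted p = 0.0961). Stat2, its partner, read 1.91, 1.78 and 1.94 in vehicle and 1.81, 1.88 and 1.91 in treated arrays. The groups overlapped, and the log2 fold change was -0.01 (SE 0.08, limma adjusted p = 0.956). A dimmer Stat2 probe gave -0.19 (SE 0.08, limma adjusted p = 0.261), with the treated arrays below all vehicle arrays.

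Irf7, which amplifies the transcription of interferon alpha genes, read 1.76, 0.75 and 1.56 in vehicle and 0.61, 0.54 and 0.80 in treated arrays. Vehicle 2 lay within the treated range, and the log2 fold change was -0.71 (SE 0.27, limma adjusted p = 0.22). Irf1, a main mediator of interferon gamma, had a log2 change of -0.43 (SE 0.18, limma adjusted p = 0.243). Irf8, a factor of myeloid cells, read -4.16, -4.17 and -4.06 in vehicle and -4.39, -4.13 and -3.41 in treated arrays. Treated 3 alone stood high, and the log2 change of 0.15 (SE 0.25, limma adjusted p = 0.753) became -0.13 without it.

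Both feedback inhibitors were tested. Usp18, the protease that removes Isg15 from proteins and blocks the type I receptor, read -1.76, -2.29 and -1.81 in vehicle and -3.16, -2.83 and -2.41 in treated arrays. The groups were separate, but the treated animals ranged widely (log2 fold change -0.85, SE 0.23, limma adjusted p = 0.155). Its other probes gave -1.25 and -1.69, the latter above background on 1 treated array. Socs1, an inhibitor of the Janus kinases, had a log2 change of -0.10 (SE 0.17, limma adjusted p = 0.754), and its groups overlapped.

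**Figure D3:**
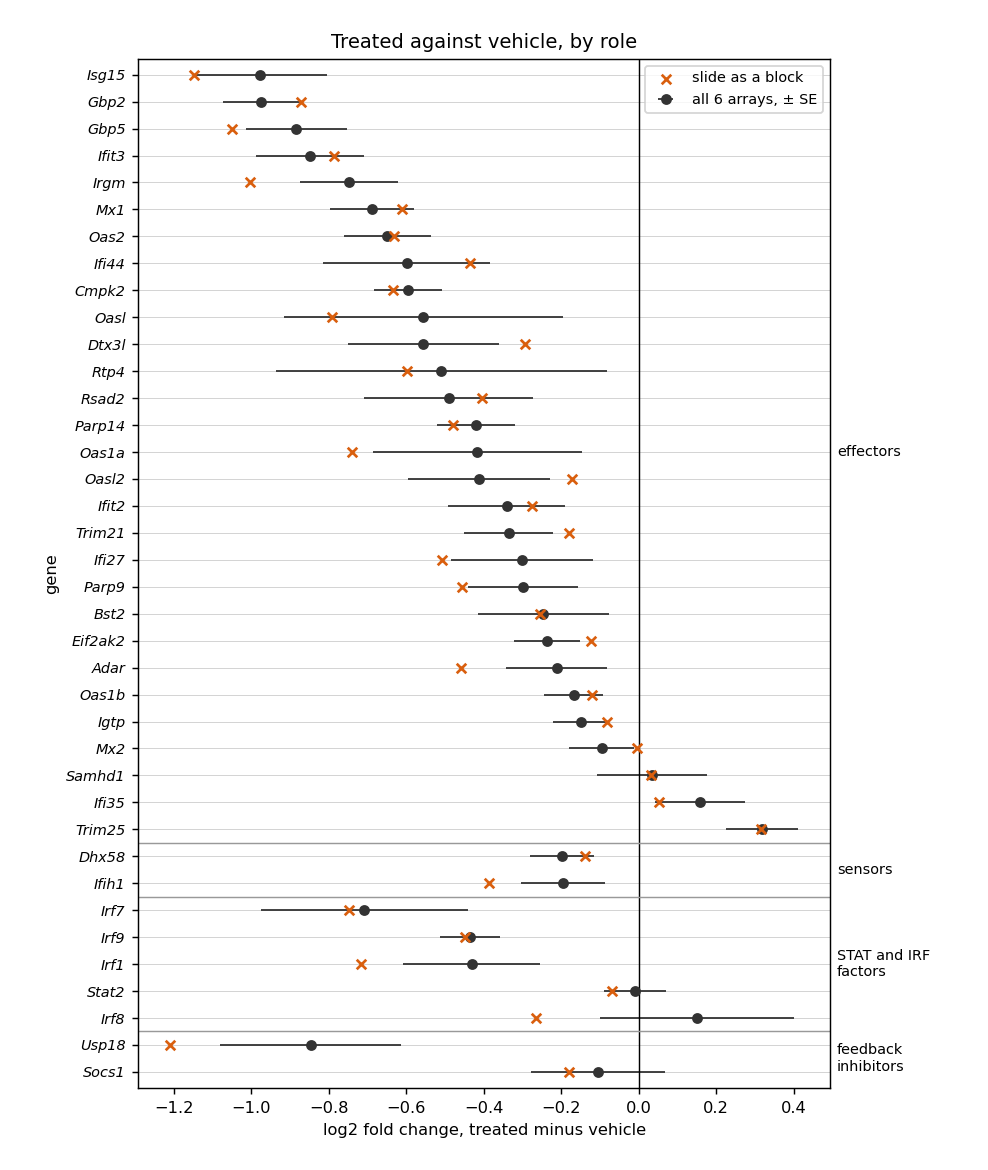
Log2 fold change, treated minus vehicle, of the 38 genes (points, bars ± SE over 6 arrays). Crosses give the value with the slide as a fixed block, which compares treated 1 with the 3 vehicle arrays. Most points lie left of 0, with Isg15 at -0.98 the lowest and Trim25 at 0.32 the highest.

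Of the 38 genes, 20 had several tested probes, and in 18 of them all probes had the same sign, with Eif2ak2 and Samhd1 the exceptions. Over all 63 tested probes of these genes, 27 were lower (42.9%) and 1 was higher at an unadjusted limma p under 0.05, against 12.2% and 8.37% of all probes tested, and 0 passed after adjustment. Of the 63, 4 passed the filter only through the vehicle arrays, and over the 59 above background on all arrays 25 were lower. The probes of Mx1, Mx2 and Usp18 differed from each other by more than 0.5 in log2 fold change, in each case with the larger decrease on a dimmer probe. The probes of each of the other genes differed by no more than 0.5, as the plot of probes shows.

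**Figure D4:**
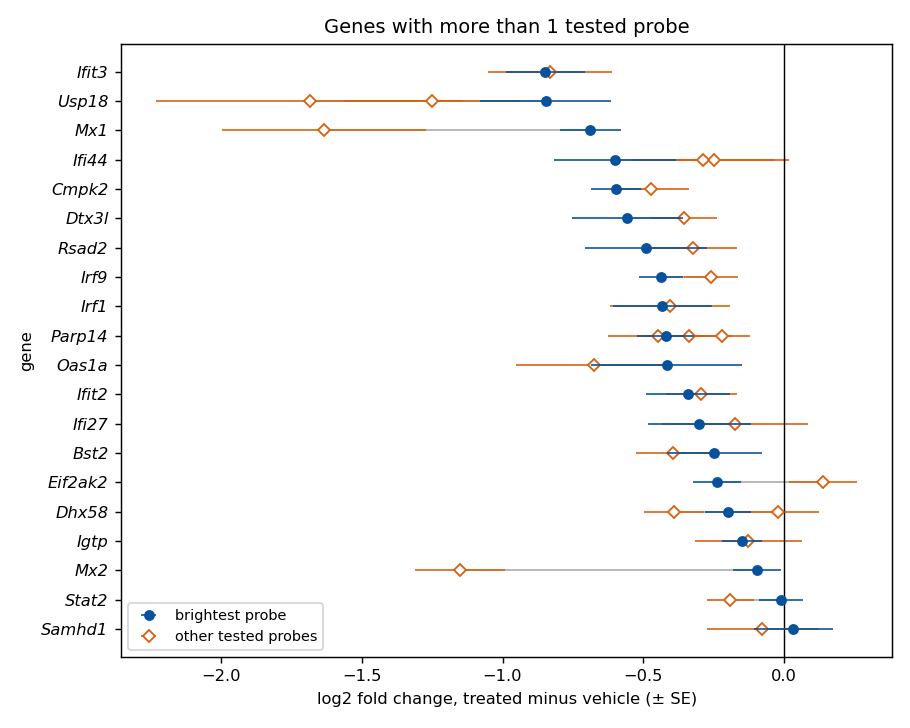
Log2 fold change, treated minus vehicle (x axis, bars ± SE), for each tested probe of the 20 genes with several, with the brightest probe filled. The open symbols of Mx1 (-1.64), Mx2 (-1.15) and Usp18 (-1.25 and -1.69) lie well to the left of the filled ones.

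The arrays sat on a pair of slides: the 3 vehicle arrays and treated 1 shared slide 1 and scan 1, and treated 2 and 3 shared slide 2 and scan 2. The median of the 38 genes, each taken relative to its vehicle mean, was 0.03, -0.09 and 0.08 in vehicle 1, 2 and 3. In treated 1, 2 and 3 it was -0.44, -0.45 and -0.25. All treated arrays were therefore below all vehicle arrays by this measure, including treated 1 on the vehicle slide. Over all 12118 genes tested, the same median was -0.002, 0.003 and 0.002 in vehicle 1, 2 and 3. In treated 1, 2 and 3 it was -0.03, 0.01 and -0.01. Of the 38 genes, 35 were below the vehicle mean in treated 1, 34 in treated 2 and 29 in treated 3. Treated 3 was the least shifted. Vehicle 2 was the lowest vehicle array for 25 of the 38. These counts by array were not made over all genes.

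The level of these genes in whole cortex depends on which cells are present, and fewer cells of a type and less RNA per cell cannot be told apart in bulk tissue. The tissue carried its markers: 8 of 8 proximal tubule, 5 of 5 thick limb and distal nephron, and 5 of 5 podocyte markers were tested and above background on all arrays. Treated 1 stood apart in the tubule lists. Its proximal tubule median was -0.28, against -0.02 to 0.03 in the vehicle arrays and 0.16 and 0.13 in treated 2 and 3. Its thick limb and distal nephron median was -0.23, against -0.01 to 0.02 in the vehicle arrays and 0.10 and 0.18 in treated 2 and 3. Sample content also varied in other lists. The 10 liver markers, all tested, had list medians of 1.18, 0.38 and -1.60 in vehicle and -0.47, 0.22 and 2.12 in treated arrays. The 3 tested adipocyte markers of 5 had -0.53, 0.12 and 0.07 in vehicle and 0.79, 0.29 and 0.83 in treated arrays. Immune cell markers differed between arrays as well. Of 12 tested macrophage and monocyte markers out of 14, 4 were lower and 1 was higher at an unadjusted limma p under 0.05, against 11.3% and 10.1% of all genes. Their median was 0.15, -0.22 and 0.05 in the vehicle arrays and -0.06, -0.46 and -0.43 in the treated arrays. The lower ones were Msr1, Adgre1, Aif1 and Cybb, which were below all vehicle arrays in treated 1 as well, and the higher one was Mrc1. Msr1 was above background on 5 of 6 arrays and passed the filter only through the vehicle arrays. Their summed level, on the log2 scale, was 6.64 to 6.89 in vehicle and 6.25 to 6.86 in treated arrays, and Cd163 was above background on 1 array.

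T and NK cell markers had 9 of 12 tested. At an unadjusted limma p under 0.05, 1 was lower (11.1%) and 0 higher, against 11.3% and 10.1% of all genes. The lower one, Cd2, passed the filter only through the vehicle arrays and was above background on 4 of 6 arrays. Klrd1 (log2 fold change -0.85, SE 0.40) was above background on 5 of 6 arrays and so also passed through a single group. The other 7 of the 9 were above background on all arrays, and the list medians and sums include all 9. The list medians were 0.19, -0.24 and 0.05 in vehicle and -0.09, -0.53 and -0.57 in treated arrays. Their summed log2 level was 0.83 to 1.16 in vehicle and 0.46 to 1.11 in treated arrays, and Cd3e and Cd5 were each above background on 2 arrays. Among the 5 pan-leukocyte markers, Ptprc and Coro1a were lower at an unadjusted p under 0.05 (40%, against 11.3% of all genes). The 5 markers had medians of 0.19, -0.23 and 0.07 in vehicle. Their medians were -0.00, -0.51 and -0.53 in treated arrays, and their summed log2 level was 3.67 to 4.04 in vehicle and 3.34 to 3.82 in treated arrays. For these 3 lists, treated 1 had medians within the vehicle range while the interferon-stimulated genes were at -0.44, and treated 2 and 3 were low in both. Vehicle 2, the lowest vehicle array for most interferon-stimulated genes, was also the lowest of its group for these lists.

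The smaller immune marker lists differed from this pattern in part. The 2 tested B cell markers of 5, of which Pax5 was lower at an unadjusted p under 0.05, had list medians of 0.07, -0.13 and 0.06 in vehicle arrays and -0.13, -0.18 and -0.34 in treated arrays, so treated 1 lay at the lower edge of the vehicle arrays. Their summed log2 level was 1.18 to 1.36 in vehicle and 0.69 to 0.95 in treated arrays. The 3 tested dendritic cell markers of 8 had list medians of 0.20, -0.22 and 0.01 in vehicle arrays and -0.01, -0.63 and -0.12 in treated arrays, with summed log2 levels of -2.03 to -1.68 in vehicle and -2.48 to -1.59 in treated arrays. Of the 3 tested neutrophil markers of 5, S100a8 (0.81, SE 0.37) and S100a9 (0.82, SE 0.37) were higher on average and Csf3r (-0.11, SE 0.13) was lower. None of them differed at an unadjusted limma p under 0.05. The 3 markers had list medians of -0.36, -0.24 and 0.68 in vehicle and 0.82, 1.20 and 0.29 in treated arrays. Treated 3 thus lay below vehicle 3. Their summed log2 level was -1.61 to -0.61 in vehicle and -0.99 to -0.06 in treated arrays. The dendritic cell marker Xcr1 and the neutrophil marker Elane were above background on 0 arrays. The part of cell content in the lower interferon-stimulated genes was not tested.

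**Figure D5:**
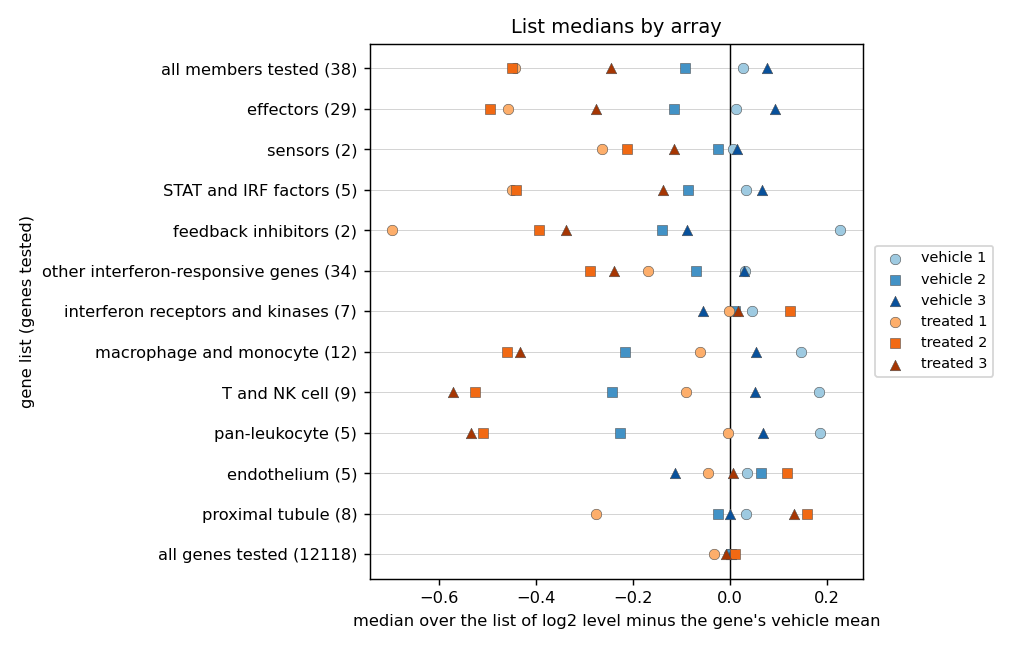
Median over each gene list of the log2 level minus the gene's vehicle mean (x axis, log2 units), 1 symbol per array, with the number of genes tested in brackets. The interferon-stimulated genes are lower in all 3 treated arrays (-0.44, -0.45, -0.25), whereas the pan-leukocyte median is near 0 in treated 1 and about as low as -0.5 in treated 2 and 3.

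Upstream of these genes, most interferon genes with a probe were not well above background on any array, and the receptor and kinase genes had a median difference near 0. Of 13 listed interferon genes, 6 had a probe, and Ifnb1, Ifna2, Ifna5, Ifnk and Ifng were well above background on 0 of the 6 arrays. Ifna4, the 1 tested, had a log2 change of -0.17 (SE 0.10, limma adjusted p = 0.384). Of 9 receptor and kinase genes, 7 were tested, with a median of 0.03. At an unadjusted limma p under 0.05, 0 were lower and 2 higher, against 11.3% and 10.1% of all genes. The type I receptor chain Ifnar1 read -1.82, -1.82 and -1.85 in vehicle and -1.62, -1.59 and -1.40 in treated arrays, all treated arrays being higher (log2 fold change 0.29, SE 0.09, limma adjusted p = 0.17). The interferon gamma receptor chain Ifngr1 had 0.20 (SE 0.08, limma adjusted p = 0.231), also without overlap.

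Among 10 tested signalling factors and regulators outside the list, 2 were lower (20%) and 0 higher at an unadjusted limma p under 0.05. These shares compare with 11.3% and 10.1% of all genes, and the median of the 10 log2 fold changes was -0.09. Of the 2 lower genes, Stat3, a factor of the interleukin-6 response, had -0.37 (SE 0.10, limma adjusted p = 0.147). Irf2bp1, a corepressor partner of Irf2, had -0.26 (SE 0.09, limma adjusted p = 0.204). The 10 tested genes that lead to interferon production had a median of -0.01. Of these, 2 were lower (20%) and 0 higher at the same threshold, against 11.3% and 10.1% of all genes. The lower ones were the DNA sensor Aim2 (-0.995, SE 0.34) and the DNA receptor Tlr9 (-0.70, SE 0.25), both of which are found mainly in immune cells.

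A further 34 interferon-responsive genes outside the list were tested, of 52 listed. At an unadjusted limma p under 0.05, 12 were lower and 0 higher, against 11.3% and 10.1% of all genes. The treated arrays lay all below the vehicle arrays for 13, against 16.8% of all genes, and the median log2 fold change was -0.27. A log2 fold change below 0 was seen for 25 of the 34, while the chemokine Cxcl11 (0.64, SE 0.31) and the complement inhibitor Serping1 (0.61, SE 0.32) had values above 0 at an unadjusted p over 0.05. Cxcl10, a chemokine that draws activated T cells, read 0.30, 0.04 and 0.17 in vehicle and -1.05, -1.37 and -0.93 in treated arrays. The groups were far apart, with a log2 change of -1.29 (SE 0.14, limma adjusted p = 0.0635). Ube2l6, the enzyme that carries Isg15 to its targets, had a log2 change of -0.84 (SE 0.13, limma adjusted p = 0.0886). Lgals3bp, a secreted glycoprotein, had -0.62 (SE 0.10, limma adjusted p = 0.0953). None of these 34 genes passed after adjustment, and their median was again below the -0.01 of all genes tested.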

How the data were processed

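Per the file headers, the authors extracted spot intensity values with Agilent Feature Extraction 10.7.1.1 (10.7 per the submitters' processing notes), which subtracts background. Between 66.1% and 68.2% of an array's 61537 non-control probes were well above background, and the number of arrays limits the precision. The 75th percentile of each array was subtracted from its log2 processed signals. The test covered the 40643 probes that carried no outlier flag (11 did) and were well above background on all 3 arrays of a group. Accessions were matched to a RefSeq table of assembly GRCr8 (28206 probes with 1 symbol, 33331 with none, 0 with several), and the brightest tested probe stood for a gene. The arrays' own annotation is of an older build, so no probe coordinates are given.

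The comparison used limma 3.58.1 under R 4.3.3 (two-sided, Benjamini-Hochberg threshold 0.05) and was tested on simulated data. The deposited series table was an alternative: its linear intensity columns, with medians of 0.105 to 0.110, followed the scanner's signal over the 75th percentile closely, uncentred by gene and in the same direction. Other alternatives were normexp background correction (on the median spot signal, since the mean was not in the files used), quantile normalization, median centring, 2 other filters, slide and replicate number as blocks, slide 1 alone, trend and robust variance, the mean of a gene's probes and each array left out. Same-numbered samples did not deviate together (correlations of -0.21, 0.01 and -0.16), so numbers were not taken as pairs.

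Members and gene lists were chosen with earlier results of these data known. Values in every array are given for the effectors (up to 10) and for other classes (up to 3 each) with an unadjusted p under 0.05 and no overlap, by size of change, or the smallest p of a class without one. They are also given for the 3 largest rises and the 2 smallest changes. In the other pathway lists, up to 3 genes of smallest p are named. The array values of Irf7, Mx2 and Rtp4 and the genes named without array values were added after their values were seen. A gene of the pathway lists is not reported here, and the list counts leave it out.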

Additional observations from a re-analysis of the deposited data

How the results depend on the processing

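The 38 genes were refitted under 18 alternatives. Of 683 single-gene values, 660 kept their direction and side of the adjusted threshold, 10 newly passed it (8 genes) and 13 reversed (4 genes). With 0 genes lower after adjustment in the analysis reported, normexp correction and trend and robust variance gave 1 each, Gbp2 in both, and the range with each array left out was 0 to 8. Other pathway genes passing numbered 1, 1 and 0 to 9 in turn. The highest values came without treated 1, when slide and group cannot be told apart and 2768 probes were lower and 1467 higher over the whole array. The count higher at an unadjusted p under 0.05 became 0 with normexp, with slide as a fixed block and with slide 1 alone. Non-overlapping lower genes numbered 27 with slide 1 alone, where 1 treated array has less chance to overlap, and 17 to 26 with each array left out (26 without treated 3). With an array left out, too, groups are less likely to overlap for any gene. The share of all genes was not counted in these settings, so counts above the 17 of the analysis reported are not a stronger result. The median of -0.41 was -0.26 with normexp (effectors also -0.26) and -0.45 to -0.30 with each array left out. That of the sensors was -0.26 with slide as a fixed block or slide 1 alone, which both compare treated 1 with the 3 vehicle arrays. With slide as a random block the sensor median was -0.23. The median of the factors was -0.46 to -0.29 with each array left out. Reversed values were Samhd1 -0.0208 with the mean of its probes, Stat2 0.0285 with median centring, and Irf8 -0.26, -0.0313 and -0.26 with slide as a fixed block, as a random block and slide 1 alone. Socs1 was 0.0882 with normexp. With each array left out, Samhd1 ranged from -0.0695 to 0.17, Stat2 from -0.0578 to 0.0227, Irf8 from -0.13 to 0.36 and Socs1 from -0.26 to 0.0297. A replicate block left 0 genes passing after adjustment and 17 lower at an unadjusted p under 0.05. The cause of these shifts was not tested. Oasl, near background in treated arrays, was not testable in 1 alternative.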
